A study of Sus scrofa with 6 samples.

Results

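Cytosolic ribosomal proteins are the proteins that, with ribosomal RNA, build the ribosome that translates nuclear messages. The rows described here were taken by gene name from a table of 25322 pig genes: names starting with RPL or RPS and a digit, the acidic stalk proteins RPLP0 to RPLP2, and RPSA, leaving out the RPS6K kinases. The name rule gave 69 rows, 42 of the large (60S) and 27 of the small (40S) subunit. The set was proposed after ribosomal genes were seen among those lower in Wei muscle, so every Wei against Yorkshire value of a member is a description and no test of the set. RNA sequencing was done on longissimus dorsi, the loin muscle, with 3 libraries from pigs labelled Wei and 3 from pigs labelled Yorkshire. Wei pigs had free access to commercial feed and water and were slaughtered at 90 kg. Like conditions were stated for Yorkshire pigs, but no slaughter weight is recorded for their libraries. The labels name no treatment, sex or age and leave it unsaid whether libraries come from different animals. The p-values therefore measure spread among libraries only, which may be technical in part (counts on the Y chromosome, given below, set Wei replicate 2 apart). Sample names carry the codes LWH for Yorkshire and YH for Wei, which are not explained, and every direction would turn if the breed labels were exchanged.

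The large subunit holds the centre where peptide bonds form and the exit tunnel for the new chain, and the small subunit reads the message. One of each protein is needed for nearly every ribosome, and the genes that encode them are scattered over the genome. Messages for ribosomal proteins and several translation factors start with a terminal oligopyrimidine (TOP) tract, through which mTORC1 and the RNA-binding protein LARP1 adjust their translation. In muscle, ribosome number is a main limit on protein synthesis and growth.

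Total counts ranged from 15285197 to 27096747 per library. Wei replicate 2 was the library with counts on the Y chromosome, 6901 against at most 14 in each of the others. Wei replicate 2 therefore did not come from the same animal as Wei replicates 1 and 3, and the Wei libraries differ in sex. Whether the remaining libraries come from different animals cannot be told from these counts. Wei replicate 1 had the lowest share of ACTA1, the muscle actin gene, at 3.77% of counts, against 6.52% to 8.76% in the others. The 9 muscle fibre markers found by name summed to between 94800 and 168000 CPM (counts scaled to library size), with the lowest sum again in Wei replicate 1. Yorkshire replicate 3 stood apart in leukocyte markers, with 51.2 CPM over 14 lymphocyte genes and 178 CPM over 10 macrophage genes, where the other 5 libraries had at most 15 and 52 CPM.

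Ribosomal protein messages took a smaller share of the RNA in every Wei library than in any Yorkshire library. All 69 rows together held 1.59%, 1.46% and 1.48% of the counts in Wei replicates 1 to 3 and 1.85%, 2.18% and 2.16% in Yorkshire replicates 1 to 3. The 95% exact binomial interval of each share was at most 0.00677 percentage points to either side and covers counting error only. The mean share was 1.51% ± 0.0706 (SD, n = 3) in Wei against 2.06% ± 0.185 in Yorkshire, a ratio of 0.734. The large subunit rows held 0.816% ± 0.0307 and 1.12% ± 0.116 of counts, and the small subunit rows 0.696% ± 0.0405 and 0.941% ± 0.0699. The ratio of Wei to Yorkshire was 0.728 for the large and 0.74 for the small subunit. The quotient of large over small subunit counts was 1.17 ± 0.0277 in Wei and 1.19 ± 0.0411 in Yorkshire, with overlapping libraries. In bulk tissue, fewer cells of a type and less message per cell cannot be told apart.

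**Figure D1:**
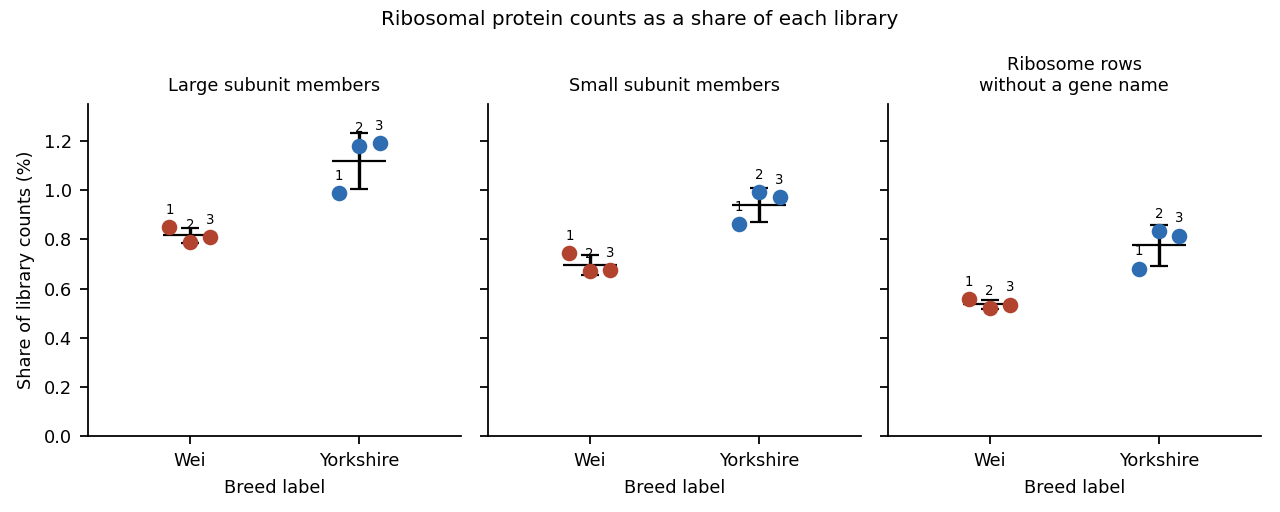
Share of library counts (%) held by large subunit members, small subunit members and ribosome rows without a gene name, by breed label. Points are libraries with their replicate number, and bars are the mean and SD of 3. Each Wei library lies below each Yorkshire library in all 3 panels.

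Summed markers of some other cell types were also lower in every Wei library, and their part in the share was not tested. The summed CPM of 5 fibroblast markers was 525 to 1510 in Wei and 1980 to 3280 in Yorkshire, and that of 14 lymphocyte markers was 8.66 to 9.56 in Wei and 12.5 to 51.2 in Yorkshire. Of 5 fibroblast and 7 lymphocyte markers tested, 0 passed edgeR's test after adjustment, while 3 and 6 had an unadjusted p under 0.05. DESeq2 called 3 and 2 of them and limma voom 0. Over all tested genes 23.3% had an unadjusted p under 0.05 in edgeR and 5.08% passed after adjustment, while DESeq2 called 9.78%. COL3A1, a fibrillar collagen gene, gave the largest part of the fibroblast sum, and without it Wei replicate 2 (623 CPM) lay above Yorkshire replicate 1 (597 CPM). The 4 satellite and cycling cell markers found summed to 2.9 to 4.23 CPM in Wei and 5.9 to 16.5 in Yorkshire, and 2 of them, the cell cycle genes MKI67 and TOP2A, were lower in Wei past the threshold of edgeR's test (limma voom called 0 of the 4). Endothelial markers overlapped, at 142 to 200 CPM in Wei and 181 to 206 in Yorkshire, and so did the 10 macrophage markers, at 44 to 52 CPM in Wei and 41.3 to 178 in Yorkshire. Red blood cell markers (9.2 to 15.9 and 8.85 to 16 CPM) and the 2 adipocyte markers found (0.473 to 3.12 and 2.58 to 3.5 CPM) overlapped as well. None of the markers found was at 0 in all libraries. Without Yorkshire replicate 3, the library rich in leukocyte markers, the median log2 fold change of members (Wei over Yorkshire) was -0.42 for the large and -0.36 for the small subunit, against -0.41 and -0.37 with all libraries. Without Wei replicate 2 these medians were -0.38 and -0.34.

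Of the 69 rows, 62 passed edgeR's filter on low counts, 35 of the large and all 27 of the small subunit. Of these, 61 had a negative log2 fold change, where 52.2% of all 13209 tested genes did. The 3 Wei values all lay below the 3 Yorkshire values for 49 of the 62, 28 of 35 in the large and 21 of 27 in the small subunit, where 15.3% of all tested genes did. The median log2 fold change was -0.41 in the large subunit (quartiles -0.58 and -0.26) and -0.37 in the small (quartiles -0.45 and -0.26), against -0.02 over all genes. On the deposited FPKM values, which scale counts to gene length and library size, the medians of the log2 ratio of breed means were -0.44 and -0.40, against -0.04 over all genes. The SD of the log2 fold change over the 62 members was 0.187, above the median standard error of a single member, 0.132, and below the SD of 0.601 over all genes. The SD over all genes includes genes measured less precisely, with a median standard error of 0.216, and was not matched to members by level.

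Single members sat near the limit of what this design resolves. With edgeR's quasi-likelihood test and Benjamini-Hochberg adjustment over all genes, 9 of 62 members had an adjusted p under 0.05, 6 of the large and 3 of the small subunit, all lower in Wei. Over all tested genes 5.08% had such a p, 2.35% lower and 2.73% higher in Wei. Because the set was chosen on this contrast, nothing is read from that difference. Just inside the threshold lay RPL34 (adjusted p = 0.046 in edgeR) and RPS3A (0.0468), and just outside it RPL5 (0.0511) and RPL22L1 (0.0515). The count rested on the full set of libraries: RPL9 alone passed when Yorkshire replicate 1 was dropped, and RPL3, which had missed the threshold with all libraries, when Wei replicate 3 was. The count was 0 when any of the other 4 libraries was dropped. Over all tested genes the share that passed also fell, from 5.08% to between 0.438% and 2.87% with 1 library dropped. With the replicate number as a block it was 3 in the large and 1 in the small subunit, and with library size alone as the scale it was 1 in each. In those 2 settings 3.61% and 3.53% of all tested genes passed.

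**Figure D2:**
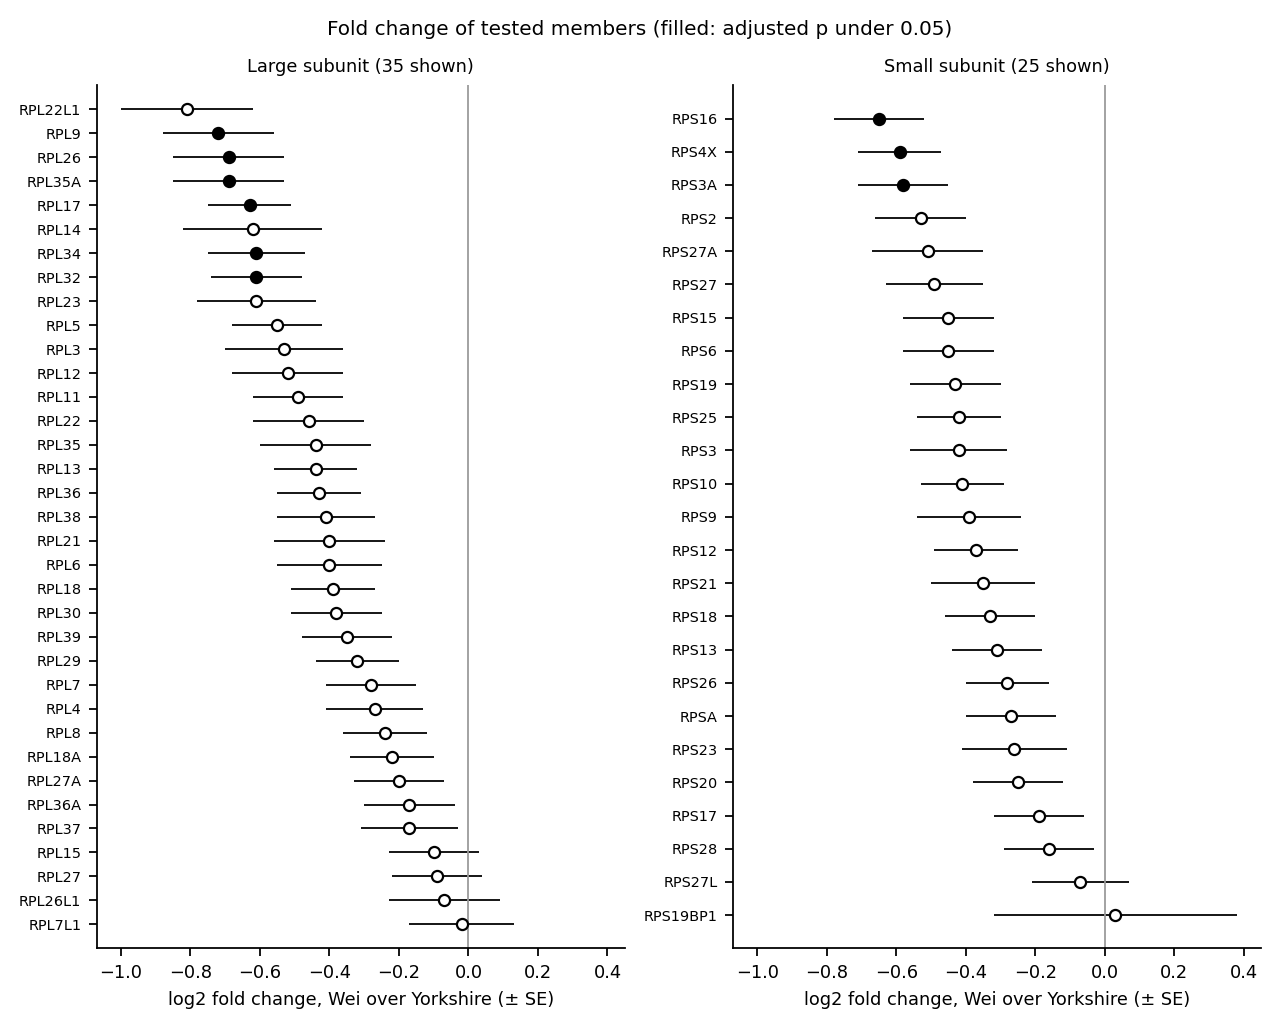
Log2 fold change (Wei over Yorkshire, x axis) of tested members, 35 of the large subunit at left and 25 of the small at right, with the standard error as a bar. Filled points had an adjusted p under 0.05 in edgeR. All points but RPS19BP1 lie below 0, between -0.81 (RPL22L1) and -0.02 (RPL7L1).

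In the large subunit, RPL9, a protein of the stalk base region (chromosome 8, 32308212 to 32314218 in Sscrofa10.2), was read at 290, 266 and 315 CPM in Wei and 385, 531 and 515 CPM in Yorkshire. Its Wei values were all lower, and its log2 fold change was -0.72 ± 0.16 (SE). RPL26, which sits near the tunnel exit (chromosome 12, 56024032 to 56029925), stood at 376, 492 and 421 CPM in Wei and 604, 759 and 715 in Yorkshire (log2 fold change -0.69 ± 0.16). RPL17, which lines the exit tunnel (chromosome 1, 108447524 to 108451374), stood at 161, 168 and 180 CPM in Wei and 242, 274 and 272 in Yorkshire. Neither RPL26 nor RPL17 overlapped between the breeds, and the log2 fold change of RPL17 was -0.63 ± 0.12. RPL34 (chromosome 8, 121707345 to 121711622) averaged 208 ± 22.3 CPM (SD, n = 3) in Wei against 318 ± 32.9 in Yorkshire. RPL32 (chromosome 13, 76055678 to 76062320) had 264 ± 14.9 CPM in Wei and 403 ± 37.8 in Yorkshire. Its span overlaps that of CAND2, a regulator of cullin ligases, and whether the authors' counting used strand is not given in the sources used here. RPL35A was the remaining large subunit gene under the threshold, with a log2 fold change of -0.69 ± 0.16. Its row on chromosome 9 (22044873 to 22045202) spans only 330 bases, and its reads could be split with a second copy described below.

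Large subunit proteins with work outside the ribosome lay in the same range. RPL5 and RPL11 travel with 5S ribosomal RNA and, when ribosome assembly fails, bind the ubiquitin ligase MDM2. RPL5 was at 499 ± 1.2 CPM in Wei and 731 ± 72.4 in Yorkshire (log2 fold change -0.55 ± 0.13). RPL11 was at 295 ± 13.4 CPM in Wei and 414 ± 37.9 in Yorkshire (log2 fold change -0.49 ± 0.13). RPL23, another MDM2 binder, stood at 330, 329 and 445 CPM in Wei and 487, 588 and 605 in Yorkshire, so that Wei replicate 3 came close to Yorkshire replicate 1. RPL3, which lies at the peptidyl transferase centre, was at 50.3, 52.4 and 75.6 CPM in Wei and 83.8, 86.7 and 87.8 in Yorkshire (log2 fold change -0.53 ± 0.17). RPL3L, its partner gene of striated muscle, was not analysed here. RPL4, with 825 ± 96.7 CPM in Wei and 997 ± 54.7 in Yorkshire, and RPL7, with 664 ± 57.1 and 806 ± 22.3, had the highest CPM among large subunit rows and smaller differences, -0.27 ± 0.14 and -0.28 ± 0.13 on the log2 scale. RPL39, a small basic protein of the tunnel, had a log2 fold change of -0.35 ± 0.13. RPL27 was close to level, at 111, 112 and 122 CPM in Wei and 106, 133 and 128 in Yorkshire.

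In the small subunit, RPS16, near the decoding site, stood at 71, 88.7 and 88.4 CPM in Wei and 125, 133 and 131 in Yorkshire. RPS4X, the X-linked form of S4 (chromosome X, 65859101 to 65864948), stood at 498, 508 and 513 CPM in Wei and 733, 785 and 769 in Yorkshire. RPS3A (chromosome 8, 82594056 to 82598541) stood at 581, 607 and 641 CPM in Wei and 832, 995 and 905 in Yorkshire. These 3 were the small subunit genes with an adjusted p under 0.05 in edgeR, with log2 fold changes of -0.65 ± 0.13, -0.59 ± 0.12 and -0.58 ± 0.13, and in each the Wei libraries lay well below the Yorkshire ones. RPS2, at the entry of the message channel, had 767 ± 28.3 CPM in Wei and 1110 ± 53.2 in Yorkshire (log2 fold change -0.53 ± 0.13). Its span overlaps that of NDUFB10, a subunit of respiratory complex I.

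RPS6, the substrate of the S6 kinases downstream of mTORC1, was read at 688, 673 and 718 CPM in Wei and 877, 1050 and 899 in Yorkshire (log2 fold change -0.45 ± 0.13). The Wei values were close together and all lower. RPS3, which also has a role in DNA repair, had 250 ± 31 CPM in Wei and 335 ± 17.4 in Yorkshire. RPS19, a gene linked to Diamond-Blackfan anaemia in people, had 84.1 ± 6.98 and 113 ± 11.3 CPM. RPS26, at the exit of the message channel, had 193 ± 17.1 and 234 ± 6.3 CPM, and RPSA, which is also known as the laminin receptor, 112 ± 11.3 and 135 ± 7.02. RPS25, which takes part in initiation at internal entry sites, had 176 ± 6.3 and 235 ± 12.5. None of these 5 overlapped between the breeds, and their log2 fold changes ran from -0.27 (RPSA) to -0.43 (RPS19). RPS28 was among the members with little difference, at 149, 139 and 150 CPM in Wei and 184, 164 and 141 in Yorkshire. RPS20, with the highest FPKM of all tested members, had 385 ± 40.4 CPM in Wei and 459 ± 11.7 in Yorkshire.

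RPS27A, which encodes ubiquitin fused to S27a, stood at 214, 216 and 252 CPM in Wei against 265, 367 and 342 in Yorkshire (log2 fold change -0.51 ± 0.16), with all Wei values lower. GNB2L1, also called RACK1, is a scaffold on the head of the small subunit that lies outside the name rule. It had 607 ± 26 CPM in Wei against 647 ± 42.3 in Yorkshire (log2 fold change -0.09 ± 0.13, adjusted p = 0.7 in edgeR), and its values overlapped.

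Members with a near paralogue did not all follow the pattern. RPL22L1, the paralogue of RPL22, had the most negative log2 fold change of the tested members, -0.81 ± 0.19, against -0.46 ± 0.16 for RPL22. Its values were 7.57, 10.5 and 9.79 CPM in Wei and 13.1, 17 and 18.7 in Yorkshire. RPL22L1 made 3.83%, 4.85% and 3.86% of the counts of the pair in Wei and 4.99%, 4.86% and 5.9% in Yorkshire, so Wei replicate 2 all but met Yorkshire replicate 2. RPL26L1 had a log2 fold change of -0.07 ± 0.16, against -0.69 ± 0.16 for RPL26. Its share of their counts was 1.88% ± 0.303 (SD, n = 3) in Wei and 1.23% ± 0.18 in Yorkshire, with no overlap. RPS27L, the paralogue of RPS27, had a log2 fold change of -0.07 ± 0.14, which turned to 0.04 without Yorkshire replicate 2, against -0.49 ± 0.14 for RPS27. Its share of the pair was 49.5% ± 4.04 in Wei and 42% ± 1.91 in Yorkshire, again with no overlap. RPL7L1, an assembly factor rather than a part of the finished ribosome, had a log2 fold change of -0.02 ± 0.15, which was 0.09 without Yorkshire replicate 2, against -0.28 ± 0.13 for RPL7. RPS19BP1 is taken by the name rule but encodes a binding partner of S19 and regulator of SIRT1. It had 3.13 ± 1.1 CPM in Wei and 3.07 ± 1.04 in Yorkshire and was the 1 tested member with a positive value, 0.03 ± 0.35, or -0.26 without Wei replicate 1. The differences between paralogues were not tested.

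**Figure D3:**
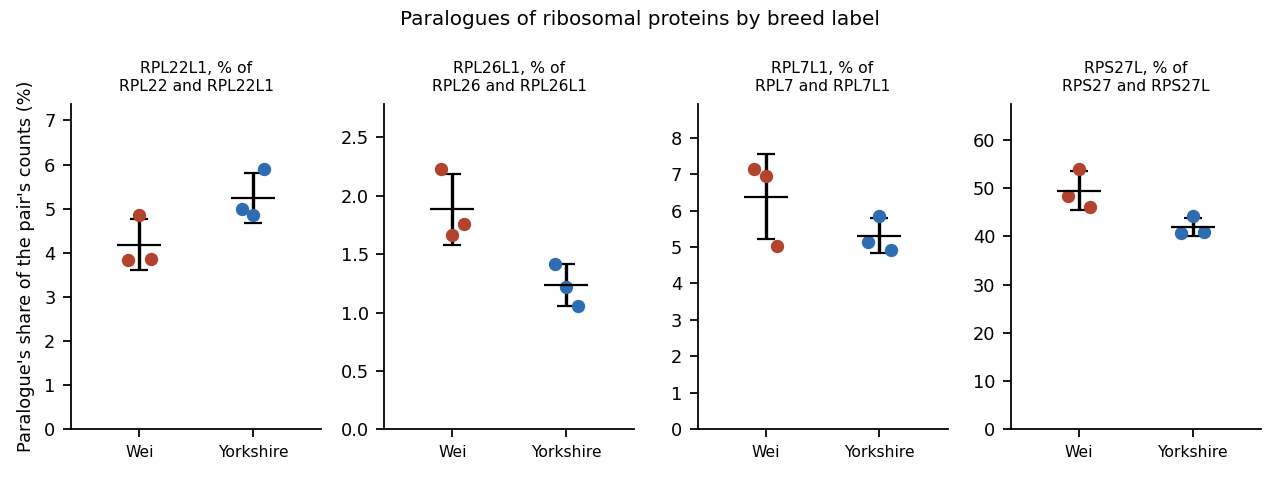
Counts of each paralogue as a share (%) of the counts of the pair, by breed label; points are libraries, and bars are the mean and SD of 3. RPL26L1 and RPS27L hold a larger share in every Wei than in any Yorkshire library, RPL22L1 holds a smaller one (4.85% against 4.86% where closest), and the RPL7L1 shares overlap.

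Levels per length spread widely although the finished ribosome holds most of its proteins in equal number. Mean FPKM over the 6 libraries ran from 8.68 to 691 in the large subunit (median 243) and from 3.25 to 817 in the small (median 299), against a median of 4.09 over all tested genes. The lowest rows were RPL7L1 and RPS19BP1, which encode no part of the finished ribosome. Next in rank came the paralogues RPL26L1, RPS27L and RPL22L1, and RPS16 (22.6), whose protein has a second row described below. Above these rows the lowest were RPL3 at 54.9 in the large and RPS19 at 45.2 in the small subunit. In the large subunit 32 of 35 members, and in the small 24 of 27, were in the top 10% of tested genes by mean FPKM. The highest small subunit levels were those of RPS20 (738 ± 62.7 FPKM in Wei and 896 ± 62.3 in Yorkshire, SD, n = 3), RPS6 (550 ± 49.7 and 760 ± 95.4), RPS2 (514 ± 57.4 and 751 ± 50.9), RPS3A (496 ± 27.1 and 755 ± 96.6) and RPS25 (463 ± 31.1 and 628 ± 58.9). In each Wei library RPS6 (608, 524 and 519 FPKM) lay above RPS2 (580, 482 and 480) and RPS3A (527, 485 and 476). In Yorkshire the order of RPS6, RPS2 and RPS3A changed from library to library. In the large subunit the highest FPKM were those of RPL6 (587 ± 28.6 in Wei and 794 ± 86.6 in Yorkshire), RPL23 (520 ± 59.1 and 814 ± 138), RPL4 (571 ± 10.3 and 706 ± 57.1), RPL5 (494 ± 49.4 and 737 ± 109) and RPL26 (457 ± 53.3 and 753 ± 121). In Wei the RPL4 libraries (561, 572 and 581 FPKM) all lay above those of RPL5 (548, 484 and 451), while in Yorkshire the ranges of these 5 genes overlapped. Overlapping ranges can hide a steady order within libraries: in each Yorkshire library RPL6 (699, 868 and 815 FPKM) lay above RPL4 (642, 752 and 722). The order of levels was nearly the same in the breeds: across the 62 members, which share libraries, Spearman's rho between mean FPKM in Wei and in Yorkshire was 0.99. The FPKM of a member and its log2 fold change had a rho of -0.281 across the same members. The gene length that the authors used for FPKM is not given in the sources used here, and it can set a level: RPS27L held between 40.8% and 54% of the counts of its pair, but its FPKM was 11.8 in Wei against 239 for RPS27.

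Values within a breed were compared from library to library. This reading uses only each library's distance from the mean of its own breed, not the difference between breeds. Over the 1891 pairs of tested members, the median correlation of these distances was 0.455 across 6 libraries, and 75.6% of pairs were positive. Over all pairs of tested genes with counts in every library 50% were positive, and over pairs in the top 10% by FPKM 56.2%. With library size alone as the scale, these shares were 81.1% for members, 62.3% and 64.1%. It was 0.432 within the large subunit, 0.458 within the small and 0.458 between the subunits. The libraries share scaling and depth, and with 3 libraries per breed these values are a description. In Wei, replicate 3 had the highest CPM for 48 of 62 members and replicate 1 the lowest for 36. That order turned with library size alone as the scale, where replicate 1 had the highest value for 36 and replicate 3 for 16, as in the shares of counts, which were highest in Wei replicate 1. In Yorkshire, replicate 2 had the highest for 42 and replicate 1 the lowest for 33, or 32 and 52 with library size alone. Members correlated with the median of all other members at a median of 0.746, and 43 of 62 were above 0.5. RPL35 (0.973), RPL7 (0.944) and RPS19 (0.942) followed it most closely. Among the 7 with a negative value were RPS9, RPL14, RPL13, RPS19BP1, RPL7L1 and RPL26L1. RPL14 had 359 CPM in Yorkshire replicate 3 against 213 and 230 in the other Yorkshire libraries, and RPS9 had its highest value, 161 CPM, in Yorkshire replicate 1. RPL35, RPS9, RPL14 and RPL13 are named here after their values were seen.

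**Figure D4:**
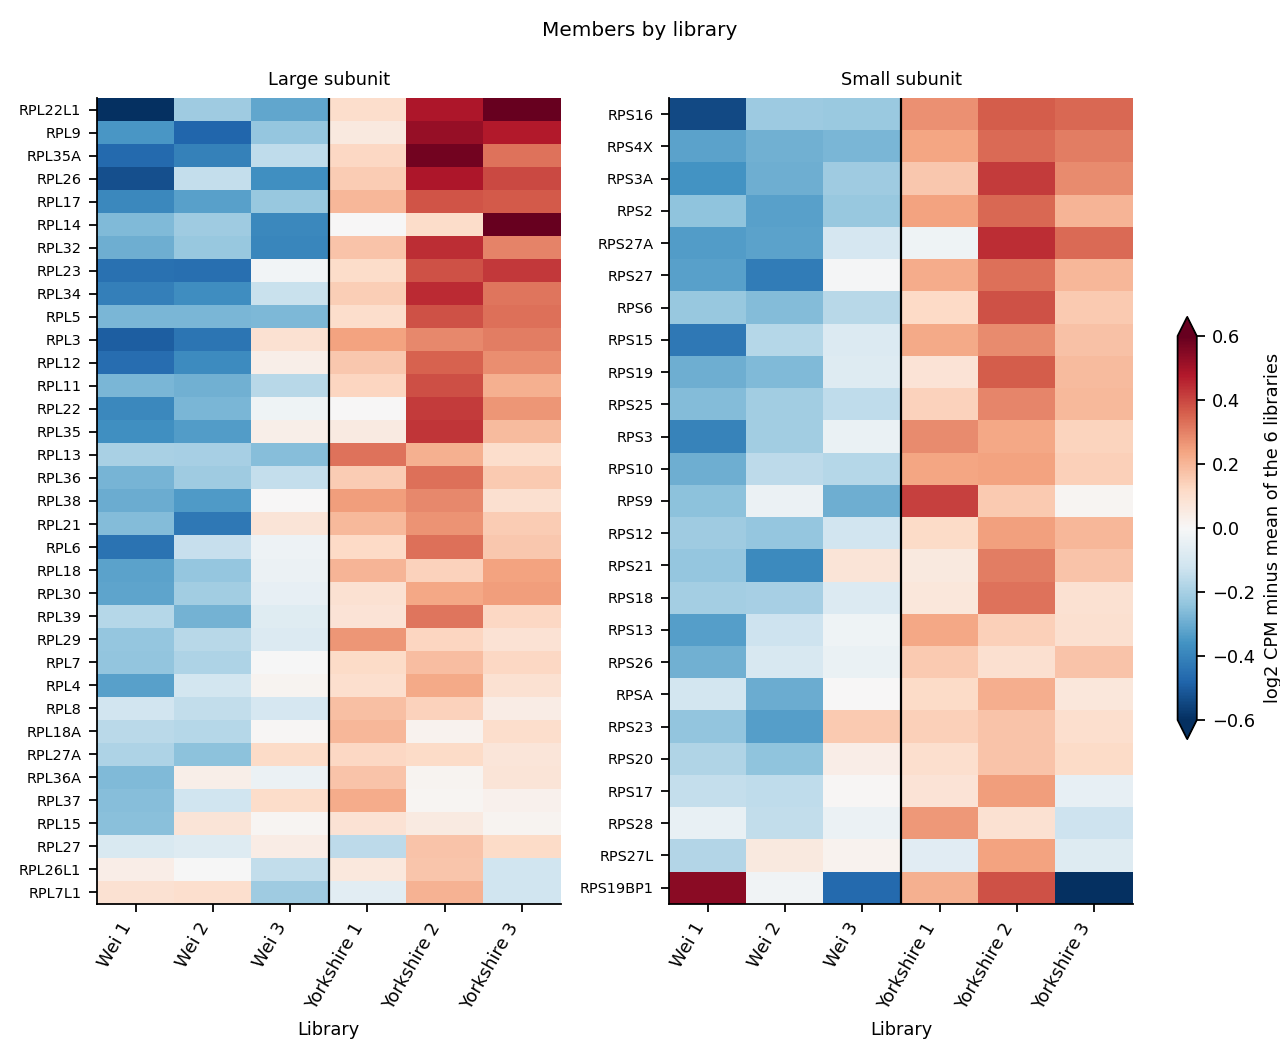
Log2 CPM of the same 35 large and 25 small subunit members minus each member's mean over the 6 libraries (colour), by library (x axis), ordered by fold change. Wei columns are mostly blue (lower) and Yorkshire columns mostly red (higher), Wei replicate 3 is palest among Wei on this TMM scale (with library size alone Wei replicate 1 is highest for most members), and the members at the foot, RPL26L1, RPL7L1, RPS27L and RPS19BP1, do not show the split.

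The rows lay on 16 chromosomes and 5 unplaced scaffolds of Sscrofa10.2, with at most 9 on a chromosome (chromosomes 1 and 6). The 7 rows that did not pass the filter were all of the large subunit. The rows named RPLP1, RPL28 and the second row named RPL26 had 0 counts in every library, which allows up to 3 counts in each, and those named RPLP2, RPL36AL, RPL37A and RPL10 had 1, 8, 26 and 39 counts over all libraries. Of these 7, 6 span under 700 bases. No difference could be read at that depth.

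Some proteins were carried by rows to which the table gives no gene name but a KEGG orthology name. There were 22 such rows, of which 21 passed the filter, and they were looked at after the members' values were known. The unnamed row described as LP1 (chromosome 1, 185385027 to 185387204), an acidic stalk protein, stood at 1090, 1350 and 1350 CPM in Wei and 1710, 2050 and 1850 in Yorkshire. That level was above that of every named member. The row described as LP2 stood at 104, 97.5 and 110 CPM in Wei and 113, 140 and 118 in Yorkshire. The row described as L10Ae (chromosome 7, 36106602 to 36108831) stood at 271, 284 and 341 CPM in Wei and 472, 538 and 487 in Yorkshire (log2 fold change -0.74 ± 0.14). The row described as L13Ae, whose protein leaves the ribosome in the interferon response, stood at 354, 414 and 398 CPM in Wei and 548, 634 and 628 in Yorkshire. All 21 had a negative log2 fold change with a median of -0.47, the breeds did not overlap in 17, and 6 had an adjusted p under 0.05 in edgeR. Over all tested genes 52.2% were negative, 15.3% had all Wei values lower and 2.35% passed with Wei lower. The rows described as S16e, L35Ae, L18e, L27Ae and S21e are second rows of named members and so are not independent of them. S16e and L35Ae were among the 6. Together the 22 rows held 0.537% ± 0.018 of counts in Wei and 0.776% ± 0.0825 in Yorkshire.

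Several proteins had more than 1 expressed row, and near-identical copies make the values of each row uncertain. RPS16 has a named row on chromosome 14 (143655389 to 143658147) and an unnamed row on chromosome 6 (43871538 to 43874349). The named row held between 36.7% and 38.4% of the counts of both in every library, and the log2 fold changes were -0.65 and -0.60. RPL35A has its short row on chromosome 9 and an unnamed row on chromosome 13 (144183622 to 144186429). The short row held between 52.9% and 57.6% of their counts, and the log2 fold changes were -0.69 and -0.70. For RPL18, RPL27A and RPS21 the named row likewise kept a steady share, at 25.8% to 29.1%, 23.2% to 24.5% and 62% to 67.9%. The mean share of the named RPS16 row was 37% ± 0.35 (SD, n = 3) in Wei and 37.9% ± 0.455 in Yorkshire, and that of the named RPL35A row 56.4% ± 0.674 and 56% ± 2.66.

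Other genes of the pathway, from lists written with earlier results of these data known, are given list by list. Of 14 tested translation factors and other genes with TOP messages, 13 had a negative log2 fold change, with a median of -0.27 and no overlap of the breeds, with Wei lower, in 9, where 52.2% of all tested genes were negative and 15.3% had all Wei values lower. EEF1A1, the elongation factor that brings aminoacyl-tRNA to the ribosome (chromosome 1, 103474791 to 103477893), was the 1 that passed (7.14%, against 5.08% of all tested genes). It had 898, 797 and 838 CPM in Wei and 1450, 1280 and 1780 in Yorkshire (log2 fold change -0.83 ± 0.16, adjusted p = 0.0331 in edgeR). All Wei values were lower. It missed the threshold with any 1 library left out (adjusted p from 0.0592 to 0.0949). EEF1B2, its exchange factor, had a log2 fold change of -0.56 ± 0.15 and NPM1, a nucleolar chaperone, -0.33 ± 0.11, and neither passed. NACA, part of the complex that shields new chains, was the exception at 0.53 ± 0.14 and did not pass.

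Ribosome assembly genes lay on both sides of 0. Of 65 tested assembly genes 0 passed edgeR's test, while 12 (18.5%) had an unadjusted p under 0.05, against 23.3% of all tested genes, and DESeq2 called 1. Negative values numbered 32 and positive ones 33, with a median of 0.03. The extremes were RRP9, of the small subunit processome, at -0.54 ± 0.18 and UTP3, another processome factor, at 0.73 ± 0.20, named here after their values were seen. SBDS, which helps release the factor eIF6 from new large subunits, had a log2 fold change of -0.03 ± 0.13, or 0.07 without Yorkshire replicate 2. Of 14 tested genes of RNA polymerase I and ribosomal RNA transcription, 3 (21.4%) had an unadjusted p under 0.05 in edgeR, against 23.3% of all tested genes. TAF1D, a subunit of the promoter selectivity factor (chromosome 9, 29682271 to 29683361), was the 1 that passed (7.14%, against 5.08% of all tested genes). It had 6.45, 4.23 and 4.89 CPM in Wei and 10.3, 11.2 and 12.4 in Yorkshire (log2 fold change -1.12 ± 0.20, adjusted p = 0.0244 in edgeR). Dropping Yorkshire replicate 2, Yorkshire replicate 3 or Wei replicate 3 took it over the threshold (adjusted p of 0.0899, 0.077 and 0.0699 in edgeR). The largest polymerase subunit, POLR1A, had a log2 fold change of 0.34 ± 0.14, and the list median was 0.08.

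Among 3 tested chaperones of single ribosomal proteins, 0 passed edgeR's test, and 1 had an unadjusted p under 0.05, which 23.3% of all tested genes had. GRWD1, the chaperone of L3, had a log2 fold change of 0.38 ± 0.15, where RPL3 itself had -0.53 ± 0.17. TSR2, the chaperone of S26, had a log2 fold change of 0.20 ± 0.18, where RPS26 had -0.28 ± 0.12. BCCIP, the chaperone of L23, was at -0.01 ± 0.16, or 0.13 without Yorkshire replicate 2. Of 13 tested genes that control translation of TOP messages, 0 passed edgeR's test, 5 (38.5%) had an unadjusted p under 0.05, DESeq2 called 1 and limma voom 0. MTOR, the kinase of mTORC1, had a log2 fold change of 0.18 ± 0.13 and MLST8, its partner subunit, 0.79 ± 0.20 (edgeR adjusted p = 0.0565). The S6 kinase genes RPS6KB1 and RPS6KB2 had 0.06 ± 0.12 and 0.34 ± 0.13. EIF4EBP1, an inhibitory binding partner of EIF4E that mTORC1 switches off, had -0.48 ± 0.15 and EIF4E, its target, 0.09 ± 0.15, or -0.02 without Wei replicate 1. LARP4B, an RNA-binding relative of LARP1, averaged 84.3 ± 13.2 CPM in Wei against 84.1 ± 7.83 in Yorkshire. LARP1 itself and RPTOR, both on the list as written, were not among the 13 tested.

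**Figure D5:**
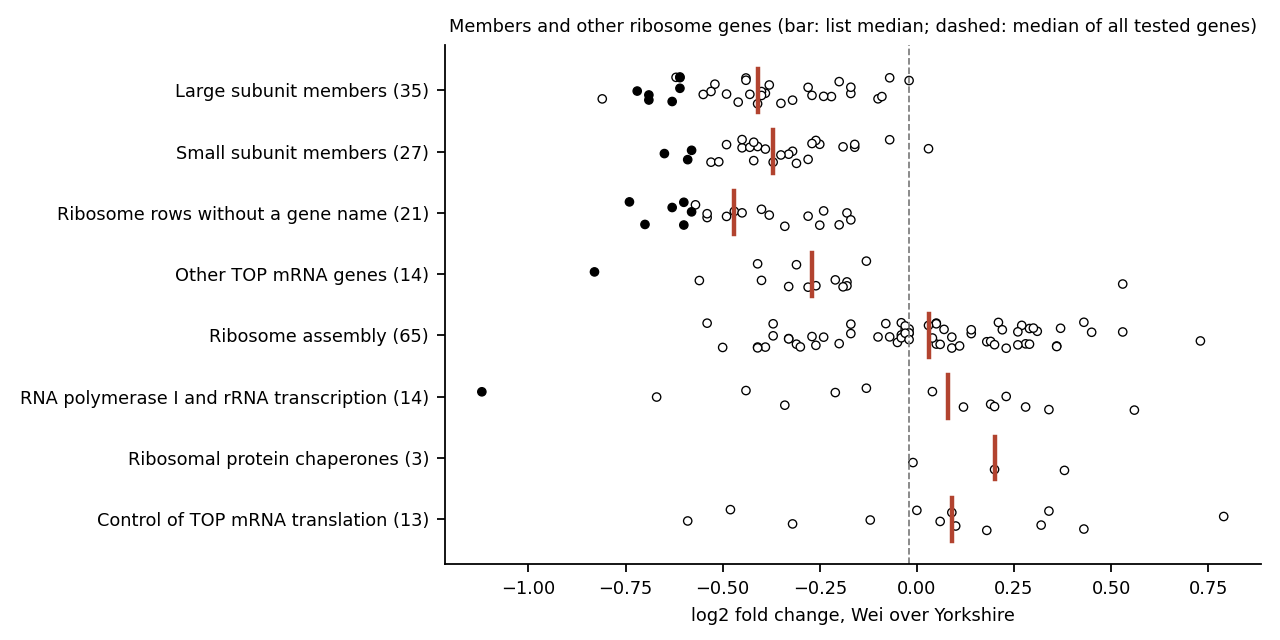
Log2 fold change (Wei over Yorkshire, x axis) of each tested gene in the 2 subunits, in the ribosome rows without a gene name and in 5 lists of other ribosome genes (y axis, number of genes in brackets). Filled points had an adjusted p under 0.05 in edgeR, bars are list medians and the dashed line is the median of all tested genes. Medians of the ribosomal protein rows lie between -0.47 and -0.37, that of other TOP genes at -0.27, and that of assembly genes at 0.03.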

How the data were processed

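The authors deposited 1 table that holds, per the file headers, each library's raw counts and FPKM values by gene. Per the labels' protocols the library kit was TruSeq RNA. CASAVA 1.7, TopHat2 2.0.9, edgeR and Sscrofa10.2 appear in the submitters' processing notes without roles. Counter, annotation and strand setting: not given in the sources used here. Of its genes, 9160 have no name there. Breed labels gave the groups. The quasi-likelihood test of edgeR 4.0.16 (R 4.3.3) was run on counts, with breed as the sole term, after TMM scaling and removal of low genes by filterByExpr at its minimum count of 10. P-values were adjusted by Benjamini and Hochberg's method over all 13209 genes kept, at a threshold of 0.05. CPM values are after TMM scaling. Shares use raw counts. The SE is the unshrunken log2 fold change over the square root of F. Correlations within breeds use log2 CPM. The members and lists were chosen with earlier results of these data known. Named members were those under the threshold, the 5 highest by FPKM per subunit, the 3 most positive and most negative fold changes per subunit, those next to the threshold and a fixed set of well-known genes. From pathway lists the rule took up to 4 that passed or else the 2 with the highest CPM. Pathway genes outside it (UTP3, RRP9, POLR1A, EEF1B2, NACA, GRWD1, MTOR, MLST8, RPS6KB1, RPS6KB2, EIF4EBP1) were chosen after their values were seen. Alternatives were RLE factors, library size alone, no filter, a 1 CPM filter, DESeq2 1.42.0, limma voom (limma 3.58.1), a replicate block, scaling without the members, leaving out mitochondrial genes and ACTA1, each library left out, and symbols from a gene name table; adding rows by KEGG orthology name, the order and correlations within breeds on library size alone, and the fibroblast sum without COL3A1 were chosen after seeing the data. The procedure was tested on simulated data. Figures were drawn with matplotlib 3.10.9. Some genes are not reported here by name and are left out of the plots that name each member, but they remain in all counts and fits.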

Additional observations from a re-analysis of the deposited data

How the results depend on the processing

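The medians of both subunits moved by less than the spread between libraries under every alternative, from -0.49 to -0.36 (large) and -0.42 to -0.33 (small). For members whose breeds are separate, dropping a library cannot turn the direction, so that is no sign of stability. Counts of genes past the threshold moved more. DESeq2 called 1291 genes in all, 12 large and 7 small subunit members, 3 TOP genes, 1 assembly gene and 1 gene of TOP control; the cause was not tested. Library size alone gave 466 genes in all, with 1 large and 1 small subunit member. No filter gave 1 gene of TOP control. Adding the rows by KEGG orthology name gave 11 large subunit rows, since more rows are counted. Leaving out 1 library, with fewer samples in each fit, left 60 to 394 genes in all, 0 to 1 large and 0 to 0 small subunit members, 0 to 0 TOP genes and 0 to 1 gene of the polymerase I list. With the replicate number as a block, 477 genes in all passed, with 3 large and 1 small subunit members. For libraries that share a number, distances from the breed means had correlations of 0.137, -0.00664 and 0.0222 over genes, and no pairing was assumed. Among scalings, library size alone shifted the all-gene median furthest, by -0.0214 (log2). No member under the threshold changed direction. Genes near 0 did. With 1 library left out, the range was -0.08 to 0.09 for RPL7L1 (positive without Yorkshire replicate 2 or Wei replicate 3, at 0.09 and 0.08), -0.12 to 0.04 for RPS27L (0.04 without Yorkshire replicate 2, 0.01 without Wei replicate 1) and -0.26 to 0.25 for RPS19BP1 (-0.22 without Yorkshire replicate 3, -0.26 without Wei replicate 1). It was -0.1 to 0.07 for SBDS, -0.11 to 0.13 for BCCIP and -0.02 to 0.21 for EIF4E.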
